A study of Homo sapiens with 6 samples.

Results

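The TRAIL and FAS death receptor pathway was followed through 9 of the 62492 genes listed in RNA-seq of HCT116 human colorectal carcinoma cells. The 9 genes were taken by name as the ligand TNFSF10 (TRAIL), the receptors TNFRSF10A, TNFRSF10B, TNFRSF10D and FAS, the adaptor FADD, the initiator caspases CASP8 and CASP10, and the caspase-8 regulator CFLAR. All 9 had enough counts to be tested, TNFSF10 only through its siNONO libraries. Wild-type HCT116 cells received either a control siRNA (siControl) or an siRNA to NONO (siNONO), an RNA-binding protein of nuclear paraspeckles. The siRNA was used at 20 nM with a lipid transfection reagent in both groups, and no untransfected cells were included. Each group had 3 libraries of polyadenylated RNA, numbered Set 1 to Set 3, which the series describes as biological replicates. Estimated counts summed to 32659002, 27491389 and 21765393 in siControl and to 28715263, 28260060 and 27946591 in siNONO.

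TRAIL and FAS ligand are trimeric ligands that bind death receptors on the cell surface. A bound receptor gathers the adaptor FADD through its death domain, and FADD brings in procaspase-8 and procaspase-10, which activate one another and then cleave the executioner caspases. CFLAR encodes FLIP proteins, which resemble caspase-8 without its full protease activity and compete for the same complex, while TNFRSF10C and TNFRSF10D bind TRAIL without carrying a complete death domain and are called decoys. Colon epithelial cells often need the mitochondrial branch, opened by the BCL-2 family, to complete the death signal.

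The knockdown was examined first. NONO averaged 502 ± 11.8 CPM (SD, n = 3) in the siControl libraries and 95.1 ± 5.43 CPM in the siNONO libraries, where CPM are counts scaled to the TMM-adjusted library size. The groups were far apart, and the log2 ratio was -2.47, -2.37 and -2.36 in Sets 1, 2 and 3. Unless DESeq2 or limma is named, an adjusted p comes from the quasi-likelihood F-test of edgeR. With all libraries it was adjusted over 17000 genes, and with 1 library left out over 17329 to 17428 genes. A gene is said to be called when its adjusted p is 0.05 or less. The line was checked against markers in TPM, a level per transcript length. Epithelial KRT8 stood at 1250 TPM in siControl and 1120 TPM in siNONO, and EPCAM at 236 and 276 TPM. The colon markers VIL1 and CDH17 were near 0 in both groups, at most 0.167 TPM, whereas CDX2 was present at 7.94 and 8.01 TPM. The leukocyte genes PTPRC and CD3E and the fibroblast gene DCN were at most 0.0233 TPM. COL1A1, also a fibroblast gene, was measurable at 17.7 TPM in siControl and 17.4 TPM in siNONO, a difference that was not called.

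Of the 9 genes, 5 were called higher in siNONO (TNFSF10, FAS, CASP8, CASP10 and CFLAR), 1 was called lower (TNFRSF10D), and TNFRSF10A, TNFRSF10B and FADD were not called. Among all genes tested, 23.2% were called higher and 23.4% lower, so that a call in either direction was common in this knockdown. The CPM values of siNONO and siControl did not overlap for 6 of the 9 genes, against 47.8% of all genes tested. TNFSF10 is in both counts, though it passed the low-count filter only through its siNONO libraries. The median log2 fold change of the 9 genes was 0.21, beside -0.0048 over all genes tested. When levels per length were tested in place of counts, with limma on log2(TPM + 1), only TNFSF10 and FAS, 2 of the 9 genes, were called higher and TNFRSF10D was still called lower, while 1643 of all 17000 genes were called higher and 3614 lower. CASP8, CASP10 and CFLAR lost their call there, with a limma adjusted p of 0.926 for CFLAR. That fit also left out TMM scaling and added 1 to each TPM, which draws in the changes of genes at low levels. Its median log2 difference over all genes tested was -0.0714. The mean length of CASP8 differed by only -0.563%. Which of these steps lost the calls was not tested. In bulk RNA, fewer cells of a type and less RNA per cell cannot be told apart.

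**Figure D1:**
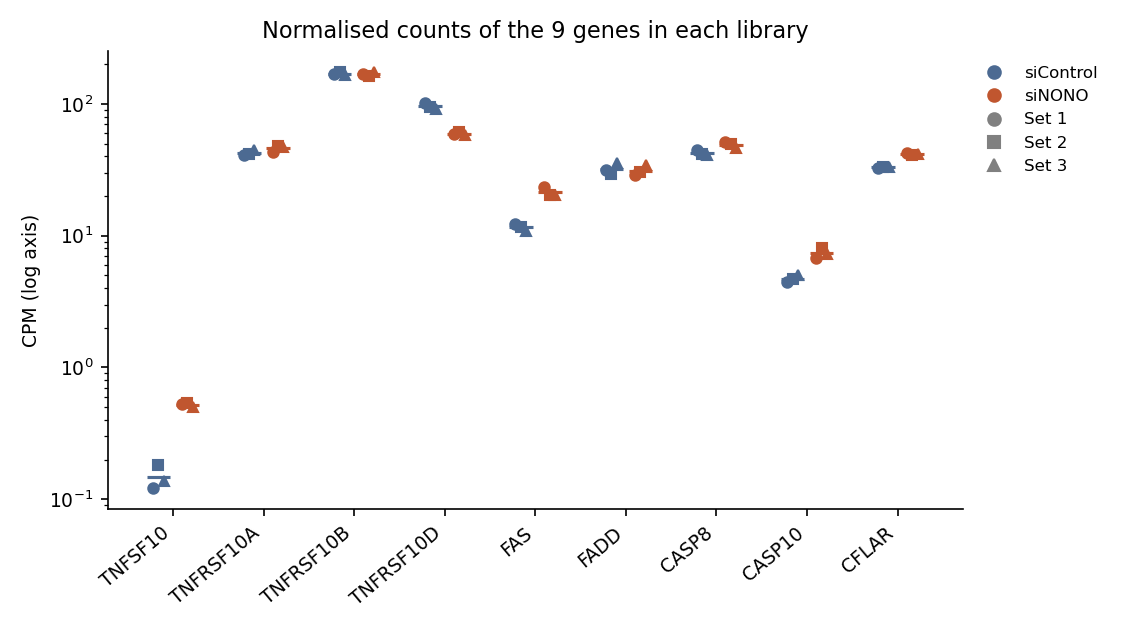
TMM-scaled CPM (log axis) of the 9 genes in each library, with siControl in blue, siNONO in orange, the Sets as symbols and the group mean as a line. TNFSF10 sits lowest, and the groups are apart for TNFSF10, TNFRSF10D, FAS, CASP8, CASP10 and CFLAR.

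**Figure D2:**
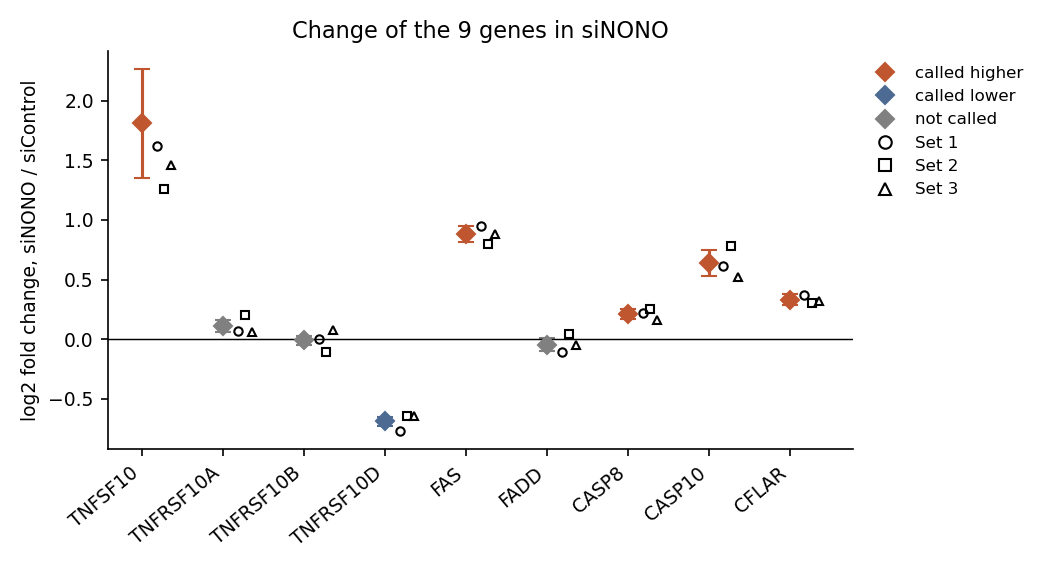
Fitted log2 fold change, siNONO over siControl, of the 9 genes with its standard error (filled diamonds, coloured by call) and the log2 ratio within each Set (open symbols). The Set ratios carry the prior count that edgeR adds to log CPM, which draws TNFSF10, at few counts, below its fitted 1.81.

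Levels were ordered per length, on the TPM scale. In siControl the most abundant of the 9 transcripts was TNFRSF10B (78.0 ± 1.48 TPM, SD, n = 3), followed by TNFRSF10D (40.6 ± 2.24 TPM), CASP8 (33.2 ± 2.37 TPM), FADD (30.1 ± 3.40 TPM) and TNFRSF10A (27.2 ± 1.96 TPM). CASP8 and FADD overlapped in this order, as did FADD and TNFRSF10A. CFLAR (11.8 ± 1.06 TPM), FAS (9.51 ± 0.647 TPM), CASP10 (2.03 ± 0.19 TPM) and TNFSF10 (0.14 ± 0.0173 TPM) followed without overlap. In siNONO, TNFRSF10D stood in the fifth place at 23.6 ± 0.295 TPM, under CASP8, TNFRSF10A and FADD, and FAS at 16.2 ± 0.924 TPM was above CFLAR at 11.9 ± 0.223 TPM. Only TNFRSF10A and FADD overlapped as neighbours in that order.

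TNFSF10 encodes TRAIL, the ligand, and lies on the minus strand of chromosome 3 of GRCh37 from 172223298 to 172241265. It was detected by very few reads, with 4, 5 and 3 counts in the siControl libraries and 15, 15 and 14 counts in the siNONO libraries. All siNONO libraries were above all siControl libraries. Scaled for depth these were 0.147 ± 0.0318 CPM (SD, n = 3) and 0.521 ± 0.0194 CPM. This was a log2 fold change of 1.81 with a standard error of 0.457 (adjusted p = 0.00583). TNFSF10 passed the filter of about 0.356 CPM in 3 libraries only through siNONO, as every siControl library was below it. Its direction in the test was thus fixed by the filter, and the adjusted p adds no separate support. The ratio of the summed counts, 44 against 12 after scaling by depth, was 3.54 with an exact 95% interval of 1.84 to 7.36, which covers counting error only. As many as 99.2% of genes tested had as high an average level, and 0.635% had as large a change. The call was lost without the siNONO library of Set 1, where the log2 fold change was 1.67 (edgeR adjusted p = 0.0517), and DESeq2 gave no adjusted p at this depth.

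The start of TNFSF10 is shown because interferon-stimulated response elements, bound by STAT and IRF complexes, are well known in genes of the antiviral response, to which TRAIL belongs. RefSeq promoter windows, 250 bases before to 50 after a gene start on GRCh38.p14, were found for 5 of the 9 genes, in 12 windows. They were searched on both strands for the core of the interferon-stimulated response element (GAAA, any 2 bases, GAAA), for TTCNNNGAA, the core of STAT sites, and for the p53 decamer. Of 34796 promoter windows of this length, 3.57% held the first, 7.67% the second and 6.65% the p53 decamer, and the first was found in 2 of the 12 windows. The TNFSF10 window upstream of the start, chr3:172523431-172523680 on the minus strand, holds 1 match to the interferon element, which begins at position -187 from the start and is in capitals, read here from its other strand.
TNFSF10: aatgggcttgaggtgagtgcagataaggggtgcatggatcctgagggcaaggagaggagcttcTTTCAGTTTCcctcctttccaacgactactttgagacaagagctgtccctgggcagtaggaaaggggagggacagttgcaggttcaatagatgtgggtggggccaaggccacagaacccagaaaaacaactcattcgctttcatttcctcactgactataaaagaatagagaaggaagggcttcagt
A match is a description of these letters and was not tested as a binding site.

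The other ligands of the family were at or near the limit of detection. FASLG, the ligand of FAS, had 0 counts in all 6 libraries, which allows at most 0.0366 CPM in siControl and 0.0353 CPM in siNONO at 3 counts over the group, for counting error only. TNF had 0 counts in siControl and 3 in siNONO over 3 libraries each. LTA had 14 and 10 counts, and TNFSF15 had 13 and 21, and none of these 4 ligands had enough counts to be tested. TNFSF12 (TWEAK), which binds TNFRSF12A, was the exception, at 9.63 ± 0.345 CPM in siControl and 13.7 ± 2.20 CPM in siNONO (log2 fold change 0.49, standard error 0.097, adjusted p = 0.00122). Its estimated counts were not whole in most libraries, so reads were shared with other genes and its count is less certain.

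The TRAIL receptors did not move together. TNFRSF10A and TNFRSF10B encode the signalling receptors DR4 and DR5, and TNFRSF10D encodes the decoy DcR2. All lie on the minus strand of chromosome 8 of GRCh37, TNFRSF10B from 22877646 to 22926544, TNFRSF10D from 22993101 to 23021540 and TNFRSF10A from 23047965 to 23082615. TNFRSF10D had 101, 95.6 and 91.3 CPM in siControl and 59.0, 61.2 and 58.4 CPM in siNONO. It fell in every Set, with log2 ratios of -0.77, -0.64 and -0.64, a fitted log2 fold change of -0.69 (standard error 0.04) and an adjusted p of 3.93e-08. The siNONO level was 0.621 of that in siControl, and 8.76% of genes tested had as large a change.

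TNFRSF10B had 169, 176 and 165 CPM in siControl and 169, 163 and 175 CPM in siNONO, so the groups overlapped. Its log2 fold change was -0.009, with a 95% interval from -0.092 to 0.074 and an adjusted p of 0.869, and its sign turned in 3 of 14 alternatives. TNFRSF10A had 41.0, 42.0 and 44.8 CPM in siControl and 43.0, 48.2 and 46.9 CPM in siNONO. The groups overlapped here too, with a log2 fold change of 0.11 (95% interval 0.0079 to 0.21, adjusted p = 0.0738). TNFRSF10A was called without the siControl library of Set 3 (edgeR adjusted p = 0.0489) and without the siNONO library of Set 3 (edgeR adjusted p = 0.0492). The other 12 of 14 alternatives did not call it. Its log2 fold change was 0.067 without the siNONO library of Set 2 (edgeR adjusted p = 0.438). Without the siControl library of Set 2 it was 0.078 (edgeR adjusted p = 0.355), and with limma on log2(TPM + 1) it was 0.017 (limma adjusted p = 0.852).

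TNFRSF10C, the fourth receptor of the cluster and the decoy DcR1, was not among the 9 genes and was taken with the wider pathway. It rose from 3.25, 2.78 and 3.01 CPM in siControl to 7.13, 6.18 and 6.65 CPM in siNONO, with no overlap (log2 fold change 1.14, standard error 0.125, adjusted p = 9.19e-06). The decoys thus differed in direction, and TNFRSF10D was the more abundant of them per length. The part of all TNFRSF10A to TNFRSF10D TPM that lay in the decoys was 31.1%, 29.0% and 28.8% in siControl and 24.4%, 23.5% and 22.0% in siNONO, a difference of -6.32 percentage points. An exact two-sided permutation test gave p = 0.1, the smallest that 3 libraries against 3 allow. Estimated counts departed from whole numbers by over 0.05 in 5 of 6 libraries for TNFRSF10A and 4 of 6 for TNFRSF10C, so reads there were shared with other genes, whereas TNFRSF10B and TNFRSF10D had whole counts throughout. Adding TNFRSF10A-AS1, a noncoding gene on the opposite strand, made the TNFRSF10A count whole in 6 of 6 libraries, so reads were divided between these genes across strands. TNFRSF10A-AS1 had 1.90 ± 0.309 CPM in siControl and 2.63 ± 0.649 CPM in siNONO (SD, n = 3) and was not called (adjusted p = 0.0769). The TNFRSF10C count became whole in 6 of 6 libraries with the 2 genes that overlap it on its own strand.

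**Figure D3:**
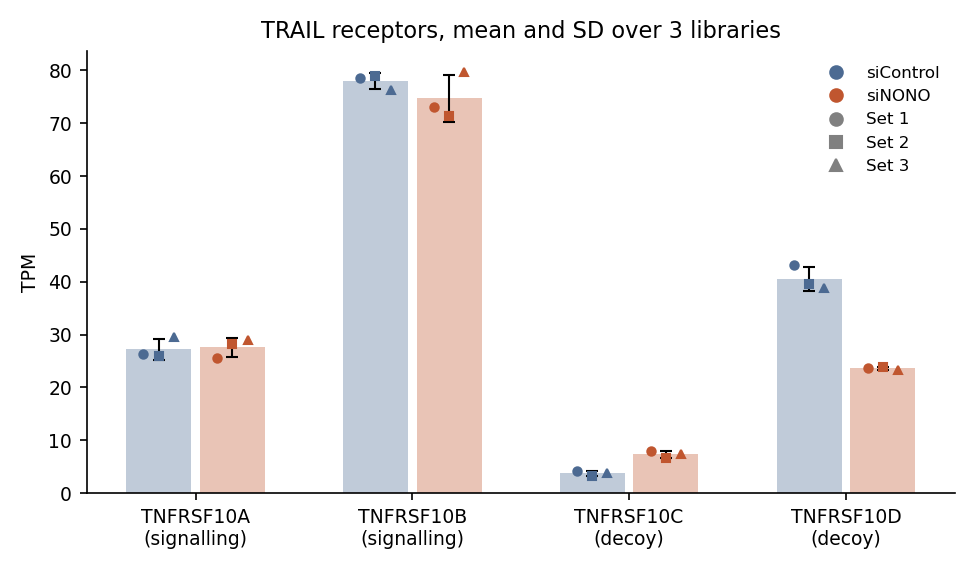
TPM of the TRAIL receptors in siControl (blue) and siNONO (orange), with bars for the mean, error bars for the SD over 3 libraries and a symbol for each Set. TNFRSF10D falls from 40.6 to 23.6 TPM while TNFRSF10C is higher in siNONO, and the signalling receptors overlap between groups.

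FAS, the receptor of FAS ligand, lies on the plus strand of chromosome 10 from 90750414 to 90775542. It had 12.2, 11.6 and 10.9 CPM in siControl and 23.6, 20.4 and 20.2 CPM in siNONO, and every siNONO library was above every siControl library. FAS rose in each Set by a log2 ratio of 0.95, 0.80 and 0.88, with a fitted value of 0.88 (standard error 0.0654, adjusted p = 3.01e-07), or 1.85-fold. The log2 fold change kept its call in all 14 alternatives and ran from 0.71 to 0.94. ACTA2, a smooth muscle actin gene on the opposite strand, overlaps FAS and was also higher, at 3.47 CPM in siControl and 8.51 CPM in siNONO (2.47-fold, adjusted p = 1.34e-06). The libraries were made with a stranded kit, but the strand setting of the counting is not given in the sources used here, and reads were divided between strands at TNFRSF10A. FAS counts departed from whole numbers by over 0.05 in 5 of 6 libraries, and the sum of FAS and ACTA2 was whole in 1 of 6. How many reads of the overlap were given to each gene cannot be told from these gene totals.

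A FAS window is shown because FAS is a known p53 target and HCT116 cells carry functional p53. Of the 3 RefSeq windows of FAS, the one at chr10:88991181-88991430 on the plus strand of GRCh38.p14 holds 1 p53 decamer, beginning at -122 from its start, in capitals.
FAS: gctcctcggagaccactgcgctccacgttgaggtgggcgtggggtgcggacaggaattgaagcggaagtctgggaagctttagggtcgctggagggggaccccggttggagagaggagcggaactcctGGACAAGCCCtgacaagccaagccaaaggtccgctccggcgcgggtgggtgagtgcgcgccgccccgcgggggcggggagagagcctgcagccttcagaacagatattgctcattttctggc
No match to the interferon element or to TTCNNNGAA was found in the FAS windows, which says only that these letters are not there.

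FADD, the adaptor that both receptors share, lies on the plus strand of chromosome 11 from 70049402 to 70053496. It had 31.3, 29.4 and 35.9 CPM in siControl and 28.9, 30.2 and 34.6 CPM in siNONO, with overlapping groups. Its log2 fold change was -0.045, with a 95% interval from -0.16 to 0.069 and an adjusted p of 0.52, and it was called in none of the 14 alternatives.

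CASP8, CASP10 and CFLAR lie next to each other on the plus strand of chromosome 2, CFLAR from 201980877 to 202041410, CASP10 from 202047595 to 202094151 and CASP8 from 202098166 to 202226559. CASP8, the main initiator caspase of the complex, had 44.4, 42.0 and 41.2 CPM in siControl and 51.8, 49.9 and 45.9 CPM in siNONO. The groups did not overlap, though the change was small (log2 fold change 0.21, standard error 0.0444, adjusted p = 0.0017), and 50.4% of genes tested had as large a change. CASP10, its close relative, had 4.43, 4.67 and 5.06 CPM in siControl and 6.82, 8.05 and 7.26 CPM in siNONO. It was higher in all 3 Sets, by 0.61, 0.78 and 0.52 on the log2 scale, with a fitted log2 fold change of 0.64 (standard error 0.11, adjusted p = 0.000375). On log2(TPM + 1), the limma adjusted p was 0.0881 for CASP8 and 0.11 for CASP10, and neither was called.

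The first CASP8 window is shown because it held matches to both the interferon and the STAT letters. It spans chr2:201233213-201233472 on the plus strand of GRCh38.p14, with TTCNNNGAA beginning at -200 and the interferon element, on the other strand, at -3 from the start, both in capitals.
CASP8: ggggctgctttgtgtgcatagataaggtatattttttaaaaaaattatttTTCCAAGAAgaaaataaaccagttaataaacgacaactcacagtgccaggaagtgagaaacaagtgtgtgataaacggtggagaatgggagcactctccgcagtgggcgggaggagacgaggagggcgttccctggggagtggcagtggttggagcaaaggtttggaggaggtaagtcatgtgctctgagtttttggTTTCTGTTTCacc
Another of the 3 CASP8 windows held a p53 decamer at -121, and the 4 windows of CFLAR and the window of FADD held none of the motifs.

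CFLAR encodes the FLIP regulators of caspase-8 and differed by the scale on which it was read. In CPM it was higher in every siNONO library, with 32.9, 33.4 and 33.1 CPM in siControl and 42.4, 41.2 and 41.4 CPM in siNONO (log2 fold change 0.33, standard error 0.0472, adjusted p = 9.06e-05). Its mean transcript length, weighted by the estimated abundance of its 25 transcripts, was 3914, 4018 and 4644 bases in siControl and 5078, 4736 and 4742 bases in siNONO. The siNONO libraries were thus all longer, by 15.7% in the mean, and 5.49% of genes tested had a longer value in every siNONO library. Per length, CFLAR stood at 11.8 ± 1.06 TPM in siControl and 11.9 ± 0.223 TPM in siNONO (SD, n = 3), with a limma log2 difference of 0.013. Reads were therefore more numerous while the level per length differed by less than the spread between libraries. The TPM scale was also lower in siNONO as a whole, with a median limma log2 difference over all genes of -0.0714, against -0.0048 for counts. TNFRSF10D and FADD, whose length did not vary, read -0.75 and -0.13 with limma, against -0.69 and -0.045 for counts. How much of the CFLAR difference between scales came from length was not tested. The deposited gene values do not say which transcripts made up the difference in length. CFLAR counts were not whole in 4 of 6 libraries and became whole in 6 of 6 with the 3 genes that overlap it on the opposite strand.

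**Figure D4:**
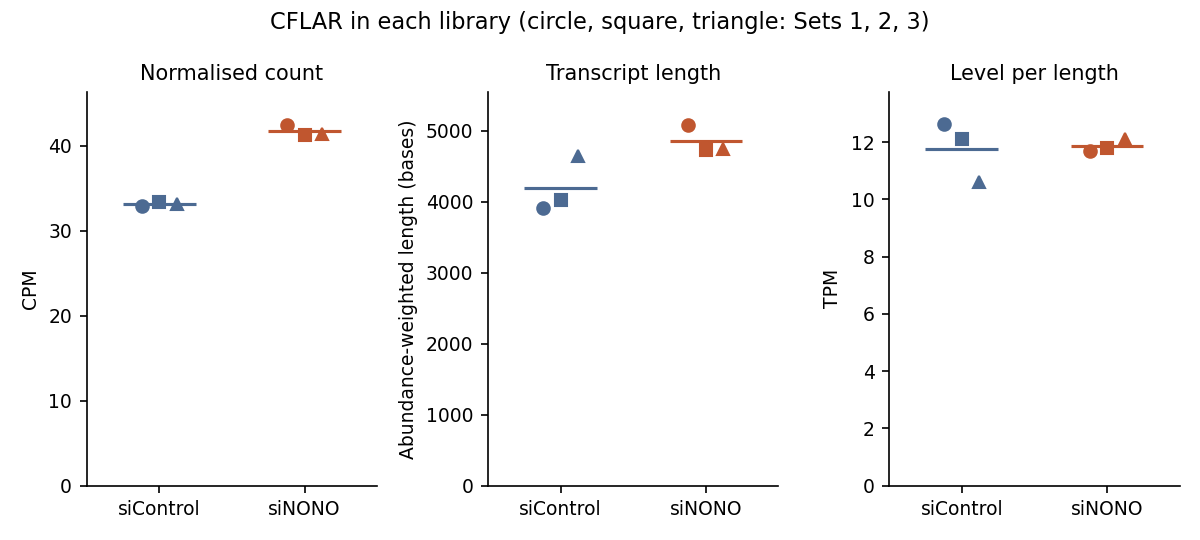
CFLAR in each library as TMM-scaled CPM, as abundance-weighted transcript length in bases, and as TPM, with a line at each group mean and axes from 0. The groups are apart in CPM and in length and overlap in TPM.

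The balance of CFLAR to CASP8, the regulator to the protease, was compared per length. The TPM ratio was 0.352, 0.378 and 0.335 in siControl and 0.292, 0.335 and 0.358 in siNONO. The groups overlapped, with means of 0.355 ± 0.0218 and 0.329 ± 0.0336 (SD, n = 3) and an exact two-sided permutation p of 0.4. Abundance-weighted length did not vary for TNFRSF10D and FADD and overlapped between the groups for each other member but CFLAR.

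Genes around the clusters were compared to show what the members share in position. Beside CFLAR, CASP10 and CASP8, the 3 nearest tested protein-coding genes on one side were ORC2 (log2 fold change -0.045, not called), HYCC2 (-0.15, called lower at an adjusted p of 0.0482) and NDUFB3 (0.0044, not called). On the other side FLACC1, which overlaps CASP8 on the opposite strand, was at 0.55 and not called, TRAK2 was higher by 0.38 and STRADB by 0.18. Around the TRAIL receptors, BIN3 (0.46) and EGR3 (1.53) were called higher, RHOBTB2 (-0.15), R3HCC1 (-0.40) and LOXL2 (-0.38) were called lower, and CHMP7 (0.047) was not called. Neither neighbourhood moved in 1 direction.

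The genes whose log2 CPM followed TNFSF10 most closely over the 6 libraries, by Pearson correlation among genes of average log2 CPM of at least 1, were IARS1 (0.9994), PDLIM3 (0.999), RPL7 (0.9985), UQCRC2 (0.998) and DDX47 (0.9975). The 6 libraries form 2 groups and share their depth and Sets, so these values mostly restate a difference between the groups.

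A wider list of 60 genes of the pathway was read in the same fit, and 53 were tested. In siNONO 24 were called higher, 9 lower and 20 not called, with a median log2 fold change of 0.11, beside 23.2% of all genes tested called higher and 23.4% lower. With library size alone in place of TMM the split was 23 higher and 14 lower, where 3687 of all genes tested were called higher and 4240 lower, and with limma on log2(TPM + 1) it was 13 higher and 11 lower, against 1643 higher and 3614 lower of all genes. Of the 33 called genes, 16 kept their call in every alternative that tested them and none changed sign. The list was chosen with results of these data known, and no test of the list as a whole was made.

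Among the other receptors, decoys and soluble inhibitors, 7 of 8 were tested, 4 were called higher and none lower. Over all genes tested the shares were 23.2% higher and 23.4% lower. TNFRSF25 was at -0.21 and not called (adjusted p = 0.0581). It was called lower by edgeR with library size alone (adjusted p = 0.0417) and by limma on log2(TPM + 1) (adjusted p = 0.0392). Its edgeR adjusted p ran from 0.00265 without the siNONO library of Set 2 to 0.504 without the siControl library of Set 1, with a value below 0 throughout. TNFRSF6B, a soluble decoy that binds FAS ligand, rose from 28.0 ± 0.866 CPM to 45.3 ± 4.34 CPM (SD, n = 3; log2 fold change 0.69, adjusted p = 3.64e-07). It shares its locus with readthrough transcripts of RTEL1, so its count is uncertain. TNFRSF21, the death receptor DR6, and TNFRSF12A, the receptor of TWEAK, were also called higher, by 0.27 and 0.17 on the log2 scale. TNFRSF12A had overlapping groups and was not called by edgeR without the block (adjusted p = 0.121) or by limma on log2(TPM + 1) (0.093, adjusted p = 0.113). TNFRSF1A, the main TNF receptor, was at -0.0053 (adjusted p = 0.926), and TNFRSF11B, a soluble TRAIL-binding receptor, had 2 counts in siControl and 9 in siNONO and was not tested.

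Of the adaptors and kinases of the receptor complexes, 10 of 11 were tested, and 4 were called higher and 1 lower. The shares of all genes tested were 23.2% and 23.4%. TRAF2, an adaptor that recruits ubiquitin ligases, was lower (-0.30, adjusted p = 0.000906), while MLKL, the effector of necroptosis, and TRADD, the adaptor of the TNF receptor, were at 0.28 and 0.27. RIPK3, the kinase that activates MLKL, had 1 count in siControl and 0 in siNONO. DESeq2 with the Set as a block did not call MLKL (adjusted p = 0.0968) or TRADD (adjusted p = 0.136), and edgeR without the block did not call TRADD either (adjusted p = 0.0835), nor did limma on log2(TPM + 1) (0.13, adjusted p = 0.364).

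Of the 8 ubiquitin enzymes of the complexes, 3 were called higher, 2 lower and 3 not called. This was near the 23.2% higher and 23.4% lower of all genes tested. BIRC3 (cIAP2), a ligase that restrains RIPK1, rose from 14.0 ± 1.49 to 22.2 ± 0.775 CPM (log2 fold change 0.67, adjusted p = 3.3e-06), and RNF31 (HOIP), the catalytic subunit of the linear ubiquitin ligase, from 55.8 ± 5.51 to 83.9 ± 5.00 CPM (0.59, adjusted p = 2.37e-07). RNF31 counts were not whole in any library, so its reads were shared with other genes. RBCK1, the partner of RNF31, was higher by 0.25. SHARPIN, the third subunit of that ligase, was at -0.15 and not called (adjusted p = 0.0597), and its adjusted p ran from 0.0189 with limma on log2(TPM + 1) to 0.362 with edgeR without the siControl library of Set 3, with a value below 0 throughout. The deubiquitinases TNFAIP3 (A20) and CYLD were lower, at -0.43 and -0.16, though neither was called by DESeq2 or by limma on log2(TPM + 1). CYLD lost its call with any 1 library left out, with edgeR adjusted p from 0.0822 to 0.143. TNFAIP3 lost it without the siControl libraries of Set 2 (edgeR adjusted p = 0.0878) and Set 3 (edgeR adjusted p = 0.0617) and without the siNONO library of Set 2 (edgeR adjusted p = 0.0683).

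Among the genes of mitochondrial amplification, 18 of 19 were tested, 9 were called higher and 3 lower. Beside these stand 23.2% higher and 23.4% lower over all genes tested. BAK1, which forms pores in the outer membrane, rose from 24.8 ± 1.03 to 42.2 ± 4.35 CPM (log2 fold change 0.76, adjusted p = 1.89e-07). The BH3-only genes HRK (0.70) and BIK (0.56) were called higher, and BMF, of the same class, was called lower (-0.60, adjusted p = 0.0247). BMF was not called by DESeq2 with all libraries (adjusted p = 0.156), and it lost its call with edgeR adjusted p of 0.0626 and 0.151 without the siControl libraries of Sets 1 and 3, and of 0.0653 and 0.133 without the siNONO libraries of Sets 1 and 3. BCL2L2 (BCL-w), a survival protein, fell from 49.9 ± 1.03 to 34.1 ± 0.587 CPM (-0.55, adjusted p = 9.6e-07), whereas the survival genes MCL1 (0.24) and BCL2L1 (0.16) were called higher. Estimated counts of BCL2L2 and BCL2L1 were not whole in any library, so their reads were shared with other genes and their counts are less certain. With limma on log2(TPM + 1), HRK (0.25, adjusted p = 0.102), MCL1 (0.11, adjusted p = 0.133) and BCL2L1 (0.062, adjusted p = 0.222) were not called. BCL2A1 had 1 count in siControl and 3 in siNONO and was not tested.

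All 9 genes of the downstream steps were tested, and 3 were called higher, 3 lower and 3 not called. Across all genes tested, 23.2% were called higher and 23.4% lower. BIRC5 (survivin), which is also a mitotic protein, was lower, from 126 ± 1.22 CPM (SD, n = 3) in siControl to 0.755 of that level in siNONO (log2 fold change -0.41, adjusted p = 4.2e-06). PARP1, a DNA repair enzyme that caspases cleave, was higher by 0.33. CASP9, the initiator caspase of the mitochondrial branch, was at 0.095 and not called.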

How the data were processed

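RNA-seq libraries of HCT116 cells (3 siControl, 3 siNONO) were prepared by the authors with a stranded mRNA kit. The authors trimmed the reads, aligned them with STAR to GENCODE 34 on GRCh37 and ran RSEM (1.3.1), and deposited for each gene the estimated count, TPM, FPKM and the abundance-weighted and effective transcript length. The authors' estimated counts were left unscaled for depth, while their deposited TPM and FPKM values carry scaling for length and depth; the FPKM values were not used. The depth per library is given with the data.

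Ensembl gene IDs were matched to symbols, and all 9 members were found. Estimated counts were rounded to whole numbers and tested with edgeR (4.0.16, R 4.3.3) by its quasi-likelihood F-test after TMM scaling and filterByExpr, which at this depth asks for about 0.356 CPM in 3 libraries, with a block for the Set, and p-values were adjusted over 17000 genes by the Benjamini-Hochberg method. The methods name a batch covariate, and the Set was taken as that batch. Deviations from the group means correlated at 0.428, 0.257 and 0.509 within Sets 1, 2 and 3. They correlated at 0.151 and 0.159 between Sets 1 and 2, and at -0.444 to -0.264 between Set 3 and the others. The values within Sets were thus the highest, but Set 2 stood little apart from Set 1. Deviations from a mean of 3 libraries sum to 0, so these values are not independent. The test was tested on simulated data. The genes named were NONO, the 9 members, pathway genes called at a log2 change of at least 0.5 or the largest of their group, those with too few counts, 3 neighbours on each side of the clusters and the 5 genes most like TNFSF10. Others, such as CYLD, SHARPIN and CASP9, and the overlapping gene ACTA2 were added after their values were seen. The values of some listed genes are not reported here. The members and lists were chosen with earlier results of these data known. Alternatives were DESeq2 (1.42.0), its size factors in edgeR, TMM replaced by library size, a fit without the block, other count filters, the edgeR 4 form, limma (3.58.1) on log2(TPM + 1), and each library left out. With 3 libraries per group, the edgeR p-values of fits with the block measure the spread left between these libraries after the Set is taken out. That spread is moderated over all genes by the quasi-likelihood fit.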

Additional observations from a re-analysis of the deposited data

How the results depend on the processing

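Across all genes, 7924 were called. The number was 5227 with DESeq2. It was 5257 with limma on log2(TPM + 1), split into 1643 higher and 3614 lower. Without the replicate block 6164 genes were called, and the 9 genes gave the same 5 higher and 1 lower. With limma on log2(TPM + 1), 2 of the 9 genes and 13 of the wider pathway were called higher. The wider pathway had 4 genes called lower under DESeq2 and 14 under library size alone. Leaving out 1 library gave 6497 to 7653 genes, 4 to 6 of the 9 genes higher and 1 lower, and 20 to 24 pathway genes higher and 6 to 7 lower. The difference in the CFLAR to CASP8 ratio then ran from -0.0415 to -0.00837, and that in the decoy share from -6.86 to -5.59 percentage points. TNFRSF10B turned to 0.0092 with no filter on low counts and ran from -0.053 to 0.055 with 1 library left out. TNFSF10 could not be tested when each library had to hold 10 counts. The cause of these changes was not tested.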
